A study of Homo sapiens with 15 samples.

Results

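The extracellular proteases of the metalloproteinase clan and their inhibitors were described across the 5 groups of an RNA-sequencing study of A375, a human melanoma cell line. The 56 genes were chosen by symbol: matrix metalloproteinases (MMP), disintegrin metalloproteinases (ADAM), their secreted relatives with thrombospondin repeats (ADAMTS), the ADAMTS-like proteins without a protease domain (ADAMTSL), the tissue inhibitors of metalloproteinases (TIMP) and RECK. They were 56 of 17360 symbols listed, made up of 11 secreted MMPs, 6 membrane-type MMPs, 13 ADAMs, 18 ADAMTS, 4 ADAMTSL and 4 inhibitors. The other 15 of the 71 protein-coding genes of the annotation that match the same symbols, TIMP4 among them, are not listed and were not analysed here.

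In the inhibitor experiment, cells with an empty vector and cells overexpressing VAV1 received vehicle, and VAV1 cells also received saracatinib, which blocks the SRC family of kinases. In the second experiment, untreated cells with an empty vector were compared with untreated cells overexpressing RAC1 P29S. Every group had 3 libraries, described as biological triplicates, of total RNA from cells grown in DMEM with serum. VAV1 activates RAC GTPases by nucleotide exchange, and P29S is a recurrent melanoma mutation that lets RAC1 load GTP without much need of an activator. Dose and time of saracatinib are not given in the sources used here, nor is whether each transgenic line came from 1 clone, and no empty vector cells with saracatinib were part of the design. The labels name the RAC1 P29S libraries by title, while their genotype field reads empty vector, and RAC1 itself followed the titles with log2 levels of 14.89 to 14.95 against 11.87 to 11.90. VAV1 read 13.86 to 14.16 in the 6 VAV1 libraries and 1.90 to 2.49 in their empty vector controls.

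MMPs cut collagens, laminins and other matrix proteins, and most are made as inactive precursors whose prodomain must be removed. Membrane-type MMPs act at the cell surface, where MMP14 together with TIMP2 activates MMP2. ADAM proteases release the outer parts of membrane proteins such as growth factor precursors, ADAMTS enzymes trim procollagens, proteoglycans and fibrillin networks, and TIMPs bind the active sites of these enzymes. In melanoma they are known for their part in invasion and in matrix turnover, which RNA levels do not measure directly.

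Values are log2 of a normalized count plus 1, called the log2 level, and a fold change is a difference of group means on that scale, which understates changes of low genes. The deposited values of each library summed to 14443918 to 16262759 normalized counts after undoing the log. In these bulk cultures, fewer cells of a type and less RNA per cell cannot be told apart. Of the fixed melanoma and melanocyte markers, 5 of 7 were listed in the inhibitor experiment and 7 of 7 in the other. SOX10 was high in every group, between 10.77 and 13.26, whereas MLANA and PMEL were low at 0.96 to 5.49. MITF moved against SOX10, with mean levels of 8.52, 10.09 and 9.0 in empty vector, VAV1 and saracatinib-treated cells and of 8.35 and 9.58 without and with RAC1 P29S. The log2 of the summed melanocyte markers, carried by SOX10, was 13.01 to 13.10 in empty vector cells, 11.50 to 11.57 with VAV1 and 11.70 to 11.77 with saracatinib, and was 13.23 to 13.36 against 12.32 to 12.42 without and with RAC1 P29S. The epithelial list (4 of 6 listed, EPCAM and KRT5 not), carried by KRT18, was 12.56 to 12.74, 13.67 to 13.77 and 12.97 to 13.04 in the first 3 groups and 11.60 to 11.79 against 12.59 to 12.75 in the other 2. The leukocyte list (7 of 9 listed in the first experiment and 5 of 9 in the second), carried by CD68, a lysosomal protein, was 9.50 to 9.59, 10.22 to 10.28 and 11.27 to 11.40, and 8.68 to 8.93 against 9.89 to 10.06, while PTPRC, its defining gene, stayed between 1.42 and 4.50. Single genes went against these sums. KRT14 of the epithelial list was highest in empty vector cells, with means of 7.17, 5.89 and 5.97 and of 7.70 against 7.23. LYZ of the leukocyte list was too, at 7.90, 5.79 and 6.48 and at 6.73 against 5.85. The fibroblast sum (7 of 8 and 5 of 8 listed) ranged from 7.21 to 8.96 and the endothelial sum (5 of 6 and 4 of 6 listed) from 5.44 to 6.87. No listed marker was at 0 in a whole group, these marker shifts ran with every comparison below, and their part in the results was not tested.

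Of the genes studied, 6 lie in the MMP cluster of chromosome 11. They span chr11:102711795-102955734 (GRCh38), 244 kilobases holding, in this order, MMP8, MMP10, MMP1, MMP3, MMP12 and MMP13. MMP7, MMP20 and MMP27, which are not listed, lie beyond MMP8 on the same chromosome. Promoter windows, taken from 250 bases before to 50 after the start in RefSeq (GRCh38.p14), were at hand for 33 of the 56 genes. None was at hand for MMP1, MMP2, MMP3, MMP9, MMP13, MMP16, MMP17, ADAMTS1, ADAMTS4 and TIMP2, among others. The shares that follow leave such genes out and do not describe the families as a whole. The AP-1 motif, written TGANTCA and searched on both strands, stood in 2 of the 33 (6.06%) against 9.37% of 27305 genes, and the TEAD motif GGAATG, also on both strands, in 5 (15.2%) against 16.7%. A match describes letters in a window and not a bound site. The stretches below belong to some of the genes whose RNA moved most in the comparisons or that carry the AP-1 letters. None is printed for ADAMTSL1, whose window begins inside an annotated exon of the same gene. The first is the 250 bases before ADAMTS6 (chr5:65481921-65482170, minus strand), with GGAATG in capitals 200 bases before the start. The second holds 170 bases ahead of the first exon of ADAMTS18 (chr16:77435115-77435284, minus strand), with neither motif. The third is the 250 bases before MMP10 (chr11:102780629-102780878, minus strand), with TGAATCA in capitals 67 bases before the start. The fourth is a 29-base stretch of ADAMTS12 (chr5:33892057-33892085, minus strand) around TGAATCA, 84 bases before the RefSeq start. ADAMTS12 also carries the TEAD letters on the opposite strand, 119 bases before that start and outside the printed stretch. In GENCODE 29 the 5′ end of this gene is at 33892192, so the stretch lies inside the annotated gene and not ahead of it. All are printed 5′ to 3′.
ADAMTS6: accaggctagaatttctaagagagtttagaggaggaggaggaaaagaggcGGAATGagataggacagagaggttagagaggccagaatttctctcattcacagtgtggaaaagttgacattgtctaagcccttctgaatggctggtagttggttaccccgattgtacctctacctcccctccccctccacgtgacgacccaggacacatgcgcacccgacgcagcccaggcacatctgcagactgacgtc
ADAMTS18: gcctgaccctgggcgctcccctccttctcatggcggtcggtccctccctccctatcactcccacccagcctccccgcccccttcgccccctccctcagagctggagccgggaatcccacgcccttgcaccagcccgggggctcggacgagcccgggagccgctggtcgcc
MMP10: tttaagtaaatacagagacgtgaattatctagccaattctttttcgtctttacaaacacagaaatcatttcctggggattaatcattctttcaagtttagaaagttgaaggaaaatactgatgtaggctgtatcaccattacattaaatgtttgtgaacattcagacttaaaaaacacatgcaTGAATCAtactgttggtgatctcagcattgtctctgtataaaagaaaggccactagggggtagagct
ADAMTS12: acactgtcagcTGAATCActcccctttta

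**Figure D1:**
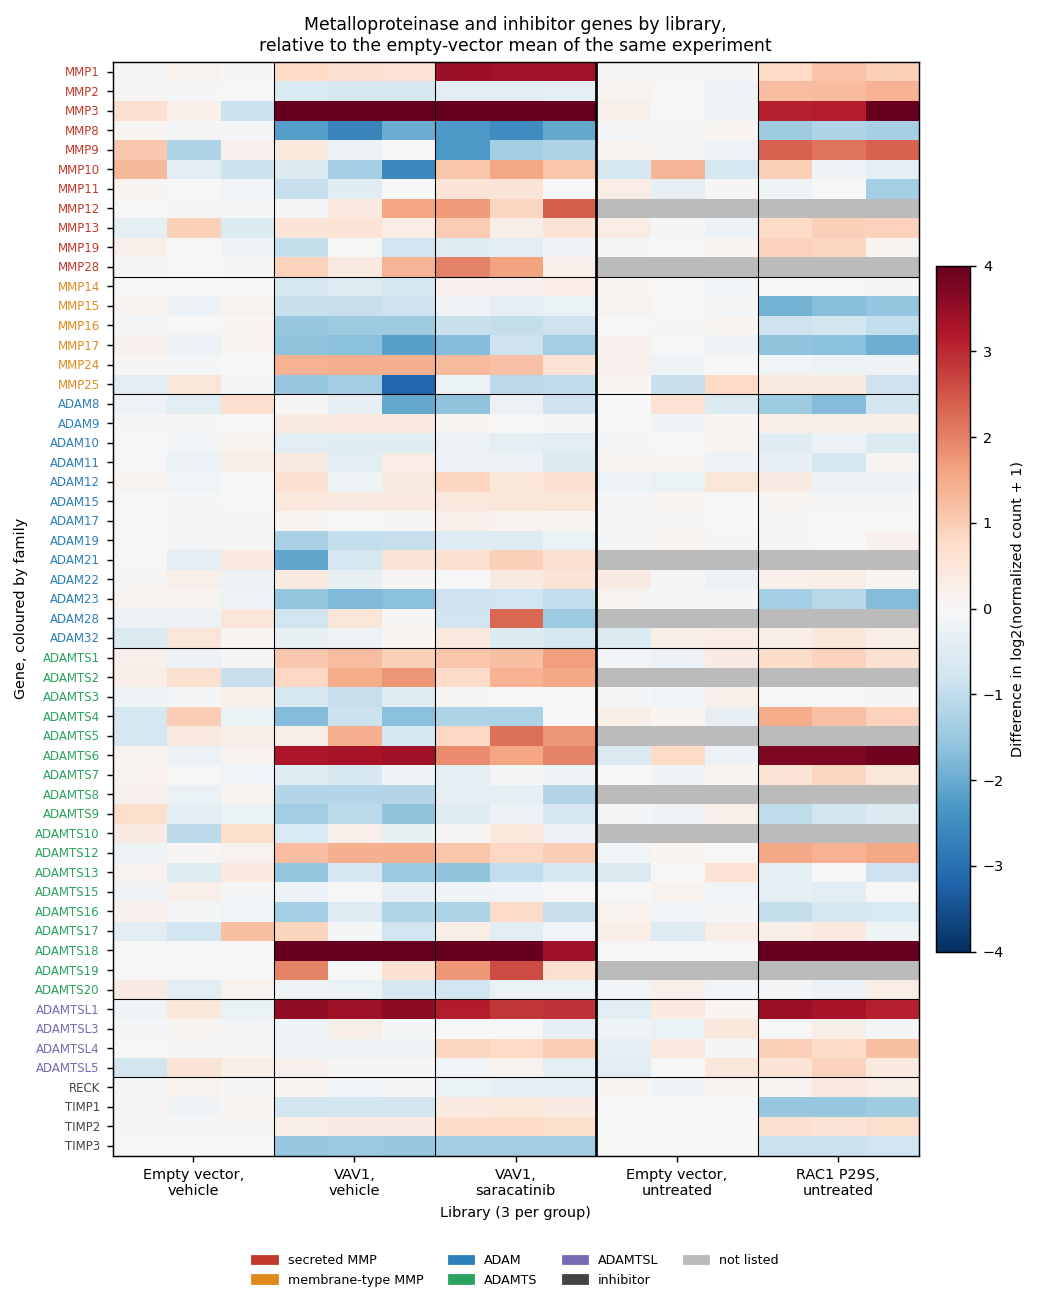
Each cell is the log2 level of 1 gene (row, grouped by family) in 1 library (column, grouped as in the study) minus the mean of the empty vector libraries of the same experiment, with colours clipped at 4 in either direction and grey cells where a gene is not listed. MMP3, ADAMTS6, ADAMTS18 and ADAMTSL1 are raised in all VAV1 and RAC1 P29S libraries, and TIMP3, MMP16, MMP17 and ADAM23 are lowered in all of them.

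The first comparison asked what VAV1 does in vehicle-treated cells. VAV1 cells carried 22.4-fold more RNA of the stromelysin MMP3, 9.93-fold more of ADAMTS6 and 11.3-fold more of ADAMTSL1 than empty vector cells, and less of 5 of the 6 membrane-type MMPs and of the inhibitors TIMP1 and TIMP3. Of the 56 genes, 48 reached a normalized count of 10 in 3 or more of the 9 libraries and were tested, and the other 8 (ADAM21, ADAM28, ADAMTS5, ADAMTS8, ADAMTS19, MMP9, MMP12 and MMP28) were not. By limma with a Benjamini-Hochberg adjusted p under 0.05, 11 rose and 17 fell, against 23.6% of all 14410 tested genes that rose and 20.1% that fell (43.7% in either direction). The median log2 fold change was -0.21 over the 48 genes and 0.02 over all tested genes. ADAMTS18 and ADAMTS2 passed the filter without any empty vector library at a normalized count of 10, so that they were tested through their VAV1 libraries.

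Among the secreted MMPs, 2 of 8 tested rose (MMP1 and MMP3) and 2 fell (MMP2 and MMP8). These counts lie near the 23.6% of all tested genes that rose and the 20.1% that fell. MMP3, which cuts many matrix proteins and activates other MMPs, had log2 levels of 3.64, 3.19 and 2.13 in empty vector cells and 7.45, 7.39 and 7.58 in VAV1 cells. All VAV1 libraries lay far above all controls, a log2 fold change of 4.49 ± 0.30 (limma SE, n = 3 per group, limma adjusted p = 8.13e-08) that was 3.04 with a pseudocount of 16 in place of 1. Here and below, ± gives the limma SE, with the spread pooled over all groups fitted together and moderated across genes. It is not the scatter of the 2 compared groups alone. MMP1, the interstitial collagenase, read 6.61, 6.83 and 6.62 against 7.48, 7.33 and 7.26 and so rose without overlap by 0.67 ± 0.10 (log2, limma adjusted p = 0.000152). MMP8, the neutrophil collagenase in the same cluster, went the opposite way. It read 5.74, 5.62 and 5.61 in controls and 3.47, 3.01 and 3.66 in VAV1 cells, 4.85-fold lower (limma adjusted p = 4.6e-05, log2 fold change -2.28, and -1.36 with a pseudocount of 16). The gelatinase MMP2, which digests denatured collagen and basement membrane, read 12.06, 11.95 and 11.99 in controls and 11.40, 11.37 and 11.36 with VAV1. The VAV1 libraries were below every control and the fall was 1.54-fold (log2 fold change -0.62 ± 0.04, limma adjusted p = 1.04e-07). The other gelatinase, MMP9, was too low to test, at 3.40, 1.07 and 2.47 in controls and 2.72, 2.09 and 2.33 with VAV1, groups that overlap. MMP10, MMP11, MMP13 and MMP19 did not pass the test (limma adjusted p = 0.0919, 0.227, 0.426 and 0.0695), with 1 control library of MMP10 at 3.86 above all the rest. MMP1 and MMP3 share 99 and 32 exonic bases with WTAPP1 on the opposite strand, whose reads cannot be told apart without strand information. The same holds for MMP19, with 814 bases shared with TMEM198B, and MMP11, with 218 shared with CHCHD10. MMP2 shares 174 exonic bases with AC007336.3 on its own strand. Each figure, here and below, is the longest overlap between 1 exon of each gene and not a total. Not every such overlap is given here.

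All 6 membrane-type MMPs passed the test and 5 of them fell, with a median log2 fold change of -1.16 in the family. Of all tested genes, 43.7% passed and 20.1% fell. MMP14, the main surface collagenase and activator of MMP2, read 10.87, 10.86 and 10.90 in controls and 10.23, 10.35 and 10.23 in VAV1 cells. The groups were well apart, and the fall was 1.52-fold (log2 fold change -0.61 ± 0.06, limma adjusted p = 1.38e-06). MMP16, its close relative, read 11.22, 11.28 and 11.37 against 9.78, 9.87 and 9.87, 2.73-fold lower (limma adjusted p = 3.64e-10). MMP17, held by a lipid anchor, read 7.91, 7.53 and 7.82 against 6.15, 6.09 and 5.58, and fell 3.52-fold (limma adjusted p = 3.05e-05). These falls exceeded the library spread in each case. MMP15 fell by 0.87 ± 0.14 (log2, limma adjusted p = 0.0002). MMP25, the second lipid-anchored member, fell by 2.02 ± 0.49 (limma adjusted p = 0.00467) at low levels of 1.39 to 3.15 in VAV1 cells. Its log2 fold change was -0.86 with a pseudocount of 16. No vehicle-treated VAV1 library of MMP25 reached a normalized count of 10, so of these groups it passed the filter only through the controls, where it was higher. MMP24 went the other way, from 3.54, 3.44 and 3.46 to 4.86, 4.93 and 4.91, a rise of 1.42 ± 0.29 (limma adjusted p = 0.00142) that was 0.78 with a pseudocount of 16. MMP24 shares 640 exonic bases with MMP24OS, and MMP25 shares exonic bases with MMP25-AS1, both on the opposite strand, so the reads of these 2 genes are uncertain.

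Of the inhibitors, 1 rose, 2 fell and RECK did not pass, against 23.6% of all tested genes that rose and 20.1% that fell. TIMP3, which binds the matrix and inhibits MMPs as well as ADAM and ADAMTS enzymes, read 14.24, 14.23 and 14.19 in controls and 12.71, 12.72 and 12.71 in VAV1 cells. The libraries within each group were nearly equal, and the fall was 2.84-fold (log2 fold change -1.51 ± 0.03, limma adjusted p = 1.06e-12). TIMP1, a secreted inhibitor of most soluble MMPs, went from 11.75, 11.56 and 11.77 to 10.94, 10.96 and 10.97, 1.66-fold lower (limma adjusted p = 2.06e-07). TIMP2, the partner of MMP14 in MMP2 activation, rose slightly from 11.19, 11.07 and 11.19 to 11.42, 11.49 and 11.47, by 0.32 ± 0.05 (limma adjusted p = 0.000176). RECK, a membrane-anchored inhibitor, read 7.29, 7.50 and 7.31 against 7.45, 7.24 and 7.41, groups that overlap, with a log2 difference of 0.00 ± 0.12 (limma adjusted p = 0.998) whose sign turned under other scalings.

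Among the ADAMs, 2 of 11 tested rose and 3 fell, near the shares of all tested genes, 23.6% and 20.1%. ADAM23, a member without protease activity that serves in cell adhesion, fell the most, from 9.39, 9.39 and 9.09 to 7.72, 7.51 and 7.63 (3.17-fold lower, limma adjusted p = 3.2e-08). ADAM19, an active sheddase, fell by 1.07 ± 0.10 (log2, limma adjusted p = 1.18e-06) from 10.53 to 10.63 in controls to 9.27 to 9.64. The 2 principal sheddases differed in outcome. ADAM10, which cuts Notch receptors and cadherins, read 11.03, 10.95 and 11.19 against 10.60, 10.58 and 10.58 and fell 1.39-fold (limma adjusted p = 7.79e-05). ADAM17, which releases TNF and several epidermal growth factor family ligands, read 10.05, 9.97 and 10.08 against 10.14, 10.04 and 10.07, overlapping groups with a difference of 0.05 ± 0.06 (limma adjusted p = 0.53). The longest overlap of an ADAM17 exon with IAH1, on the opposite strand, is 1257 bases, so the reads of ADAM17 are uncertain. ADAM9 and ADAM15 rose by 0.38 ± 0.05 and 0.39 ± 0.04 (log2, limma adjusted p = 2.89e-05 and 6.87e-06). ADAM15 shares 306 exonic bases with DCST1 on the same strand, so its reads are uncertain too. The other 6 tested ADAMs did not pass.

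The ADAMTS and ADAMTSL genes included the strongest rises outside the MMPs. ADAMTS6, an enzyme tied to fibrillin microfibrils and the gene whose upstream stretch opens the sequences above, read 5.60, 5.26 and 5.64 in controls and 8.74, 8.81 and 8.89 with VAV1. It rose by 3.31 ± 0.15 (log2, limma adjusted p = 9.56e-10), with a wide gap between the groups. ADAMTSL1, or punctin, a matrix protein without protease activity, went from 5.17, 5.77 and 5.06 to 8.87, 8.72 and 8.91 (3.50 ± 0.17, limma adjusted p = 1.98e-09). ADAMTS18 was listed at 0 in all 3 controls and read 4.40, 5.34 and 4.35 in VAV1 cells (limma adjusted p = 5.58e-06), and no fold is given for it. ADAMTS12, which cuts the cartilage oligomeric matrix protein, rose from 9.23, 9.46 and 9.56 to 10.66, 10.83 and 10.87 (2.58-fold, limma adjusted p = 9.7e-08), and ADAMTS1, a proteoglycanase, rose 2.12-fold (limma adjusted p = 0.000102). In all these genes every VAV1 library exceeded every control. Of 15 ADAMTS genes tested, 4 rose and 5 fell, against 23.6% and 20.1% of all tested genes. The falls were ADAMTS9 (-1.35 ± 0.28, limma adjusted p = 0.00169), ADAMTS3 (-0.70 ± 0.14, limma adjusted p = 0.0015), ADAMTS4, ADAMTS7 and ADAMTS13. The aggrecanase ADAMTS4 read 5.54, 7.23 and 5.99 against 4.50, 5.39 and 4.57, a log2 fold change of -1.43 ± 0.46 (limma adjusted p = 0.024). It no longer passed without control library 2, VAV1 library 1 or VAV1 library 3, nor did ADAMTS13 without control library 3 or VAV1 library 1, with limma adjusted p up to 0.088 and 0.0621 over the alternatives. The call of ADAMTS7 (limma adjusted p = 0.0489) was lost in 12 of 19 alternatives, with adjusted p up to 0.162, among them the omission of any 1 library other than VAV1 library 3.

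**Figure D2:**
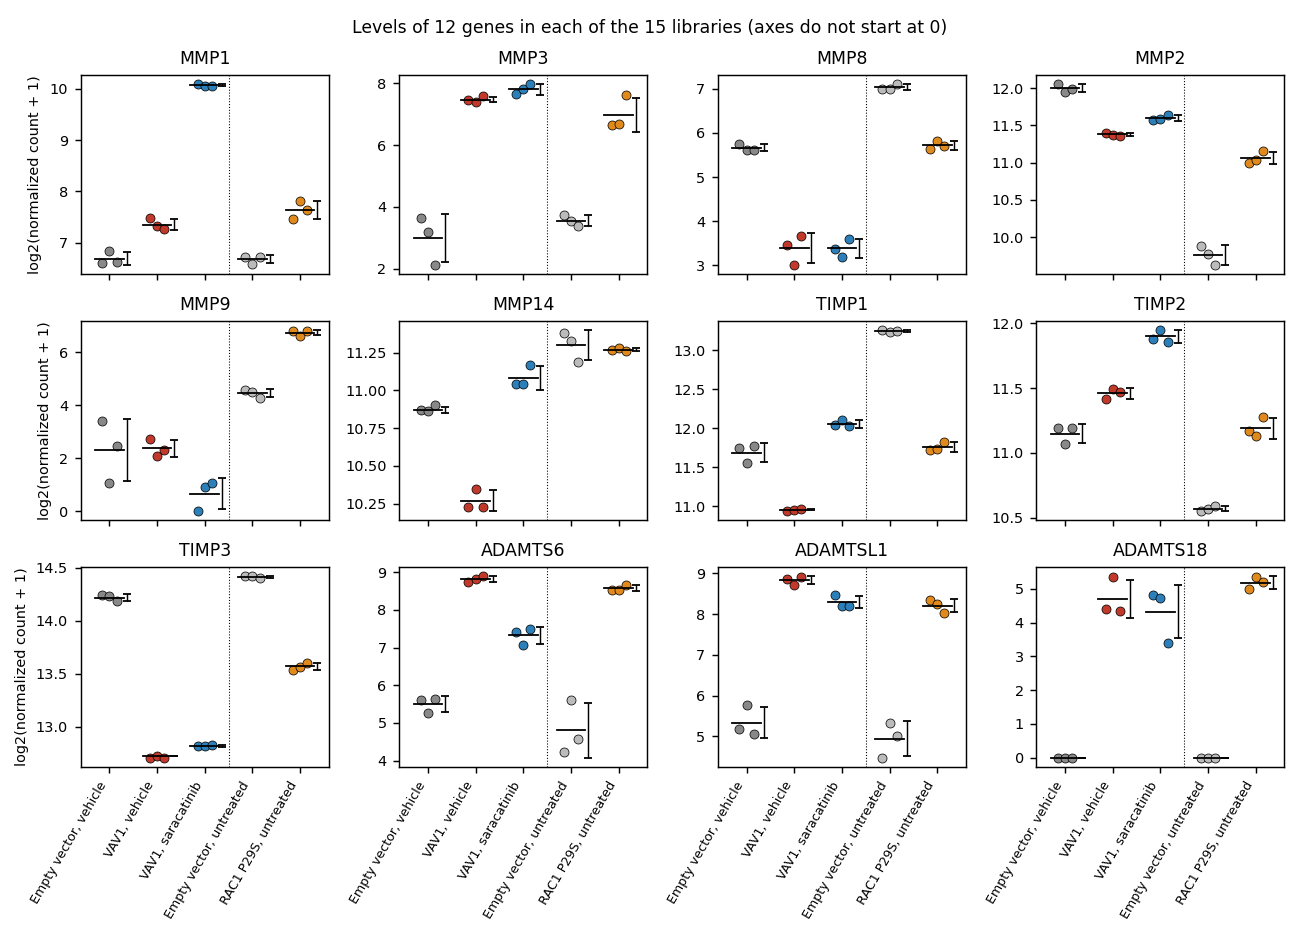
Each panel shows log2 levels (vertical axis, log2 of normalized count plus 1, not starting at 0) of 1 gene in the 5 groups (horizontal axis), with a point per library, a line at the group mean and a bar of 1 SD over the 3 libraries. MMP3 and ADAMTS6 are high in the VAV1 and RAC1 P29S groups, MMP1 is highest in the saracatinib group at 10.06 to 10.10, and MMP2 falls with VAV1 and rises with RAC1 P29S.

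The second comparison asked what saracatinib does to VAV1 cells. It shares the VAV1 vehicle libraries with the first, so a library that is low there moves the fold changes of both in opposite directions. With saracatinib, MMP1 was 6.57-fold higher than with vehicle, and MMP10 (at very low levels), MMP14, TIMP1, TIMP2 and ADAMTSL4 also rose. ADAMTS6 was 2.82-fold lower. Of the 48 genes tested, 15 rose and 5 fell (limma, Benjamini-Hochberg adjusted p under 0.05), against 18.3% of all tested genes that rose and 19.1% that fell (37.3% in either direction), with medians of 0.22 over these genes and -0.01 over all.

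In the secreted group 4 of 8 tested genes rose and none fell at an adjusted p under 0.05, against 18.3% and 19.1% of all tested genes. MMP1 read 7.48, 7.33 and 7.26 with vehicle and 10.10, 10.06 and 10.06 with saracatinib. The treated libraries were almost equal and far above the others, with a log2 fold change of 2.72 ± 0.10 (limma adjusted p = 4.41e-10). MMP10, stromelysin 2, whose upstream stretch with TGAATCA is printed above, read 2.03, 1.23 and 0 with vehicle and 3.68, 4.11 and 3.67 with saracatinib, a rise of 2.73 ± 0.67 (limma adjusted p = 0.00605) at very low levels. No vehicle-treated VAV1 library of MMP10 reached a normalized count of 10, so it was tested mainly through the saracatinib libraries, and its log2 fold change was 0.74 with a pseudocount of 16. One control library of that gene, at 3.86, lies within the saracatinib range. MMP3, also a stromelysin, read 7.45, 7.39 and 7.58 with vehicle and 7.64, 7.81 and 7.99 with saracatinib, a difference of 0.34 ± 0.30 (log2, limma adjusted p = 0.407) that did not pass. Of the 3 neighbours in the cluster, MMP10 and MMP1 passed and MMP3 did not, and no test of the difference between these genes was run. MMP2 rose 1.17-fold (limma adjusted p = 0.00154) from 11.36 to 11.40 to 11.57 to 11.64. MMP8 stayed at 3.37, 3.18 and 3.60 (log2 difference 0.01 ± 0.30, limma adjusted p = 0.992), and MMP9 was listed at 0, 0.92 and 1.07 in the treated libraries and was not tested. The rise of MMP11 (0.82 ± 0.30, limma adjusted p = 0.0477) was lost in 11 of 18 alternatives, with adjusted p up to 0.168, among them the omission of any 1 library other than VAV1 library 3 or saracatinib library 3.

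Of the membrane-type MMPs, 3 of 6 rose and none fell at that threshold, against 18.3% and 19.1% of all tested genes. MMP14 went from 10.23, 10.35 and 10.23 to 11.04, 11.04 and 11.17, a rise of 0.82 ± 0.06 (log2, limma adjusted p = 1.35e-07). All treated libraries also lay above the empty vector range of 10.86 to 10.90. MMP16 and MMP15 rose by 0.55 ± 0.06 and 0.61 ± 0.14 (limma adjusted p = 9.2e-06 and 0.00357) and reached 10.33 to 10.45 and 7.17 to 7.43, where the controls stood at 11.22 to 11.37 and 7.32 to 7.72. MMP17, MMP24 and MMP25 did not pass.

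All 4 inhibitors passed the test, 3 of them upward, against 37.3% of all tested genes that passed and 18.3% that rose. TIMP1 went from 10.94, 10.96 and 10.97 to 12.04, 12.11 and 12.03, 2.15-fold higher (limma adjusted p = 6.58e-09), and TIMP2 from 11.42, 11.49 and 11.47 to 11.88, 11.95 and 11.86, 1.35-fold higher (limma adjusted p = 1.49e-05). In both, every treated library exceeded every vehicle library. TIMP3 moved little, from 12.71 to 12.72 with vehicle to 12.82 to 12.83, a rise of 0.11 ± 0.03 (log2, limma adjusted p = 0.0242). RECK fell by 0.34 ± 0.12 (limma adjusted p = 0.0416) to 6.96 to 7.09. Both of these small calls were fragile. That of TIMP3 was lost in 7 of 19 alternatives (adjusted p up to 0.104), among them without VAV1 library 1 or 3 or any 1 saracatinib library. That of RECK was lost in 9 of 19 (adjusted p up to 0.121), among them without those libraries or control library 3. With the replicate number as a block, neither passed.

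Among the ADAMs, ADAM23 rose by 0.79 ± 0.11 and ADAM19 by 0.64 ± 0.10 (log2, limma adjusted p = 6.42e-05 and 0.00018), while ADAM9 fell by 0.33 ± 0.05 (limma adjusted p = 0.000166). ADAM10 read 10.83, 10.70 and 10.65 with saracatinib and did not pass (0.14 ± 0.07, limma adjusted p = 0.112), nor did ADAM17 (0.09 ± 0.06, limma adjusted p = 0.259). ADAMTS6 fell from 8.74, 8.81 and 8.89 to 7.40, 7.07 and 7.49 (-1.49 ± 0.15, limma adjusted p = 4.41e-06), still above the empty vector libraries at 5.26 to 5.64. ADAMTSL4, a fibrillin-binding protein without protease activity, rose from 8.13, 8.11 and 8.12 to 9.14, 9.10 and 9.28 (2.08-fold, limma adjusted p = 4.73e-07), although 736 of its exonic bases overlap an opposite-strand gene. ADAMTS3, a procollagen peptidase, rose by 0.72 ± 0.14 (limma adjusted p = 0.00148) and ADAMTS12 fell by 0.39 ± 0.09 (limma adjusted p = 0.0054). ADAMTS9 rose by 0.88 ± 0.28 and ADAMTSL1 fell by 0.55 ± 0.17 (limma adjusted p = 0.0266 and 0.0216). Without VAV1 library 1, VAV1 library 3 or saracatinib library 2 neither of these calls held, nor did ADAMTS9 without saracatinib library 1 or ADAMTSL1 without saracatinib library 3 (adjusted p up to 0.0915 and 0.0722 over the alternatives). ADAMTS18 read 4.82, 4.73 and 3.40 with saracatinib, overlapping its vehicle values.

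Set beside the empty vector libraries directly, saracatinib-treated VAV1 cells still differed in 14 genes that were higher and 10 that were lower of 48 tested (limma, Benjamini-Hochberg), against 22.4% and 21% of all tested genes (43.4% in either direction), with medians of -0.10 over these genes and 0.004 over all. This comparison shares libraries with both others, and its values are given as levels reached. MMP1 (3.38 ± 0.10, limma adjusted p = 2.76e-11), MMP3 (4.83 ± 0.30, 5.93e-08, and 3.36 with a pseudocount of 16), ADAMTSL1 (2.95 ± 0.17, 1.67e-08), ADAMTS6 (1.82 ± 0.15, 5.7e-07), ADAMTS1 (1.32 ± 0.16, 2.12e-05) and ADAMTS12 (0.98 ± 0.09, 3.53e-06) were above the control on the log2 scale. TIMP1, MMP14 and ADAMTSL4, which VAV1 had lowered or left uncalled, were above it too, by 0.37 ± 0.06, 0.21 ± 0.06 and 0.88 ± 0.08 (limma adjusted p = 0.000139, 0.00857 and 2.08e-06), as was TIMP2 by 0.75 ± 0.05 (limma adjusted p = 6.69e-08). MMP8 (-2.27 ± 0.30, and -1.36 with a pseudocount of 16), TIMP3 (-1.40 ± 0.03), MMP17 (-1.31 ± 0.23), MMP16 (-0.90 ± 0.06), ADAM23 (-0.88 ± 0.11), ADAM19 (-0.43 ± 0.10), MMP2 (-0.40 ± 0.04) and ADAM10 (-0.33 ± 0.07) were below it, with limma adjusted p between 5.3e-12 for TIMP3 and 0.0025 for ADAM19. The levels of these genes with saracatinib thus lay on either side of the control. The level of MMP24 exceeded the control by 1.0 ± 0.29 (log2, limma adjusted p = 0.0139), which no longer passed without saracatinib library 1 or 2 (adjusted p up to 0.06). RECK and ADAMTS13 were lower by calls that several omissions ended (limma adjusted p = 0.0367 and 0.0281, up to 0.121 and 0.112 over the alternatives).

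**Figure D3:**
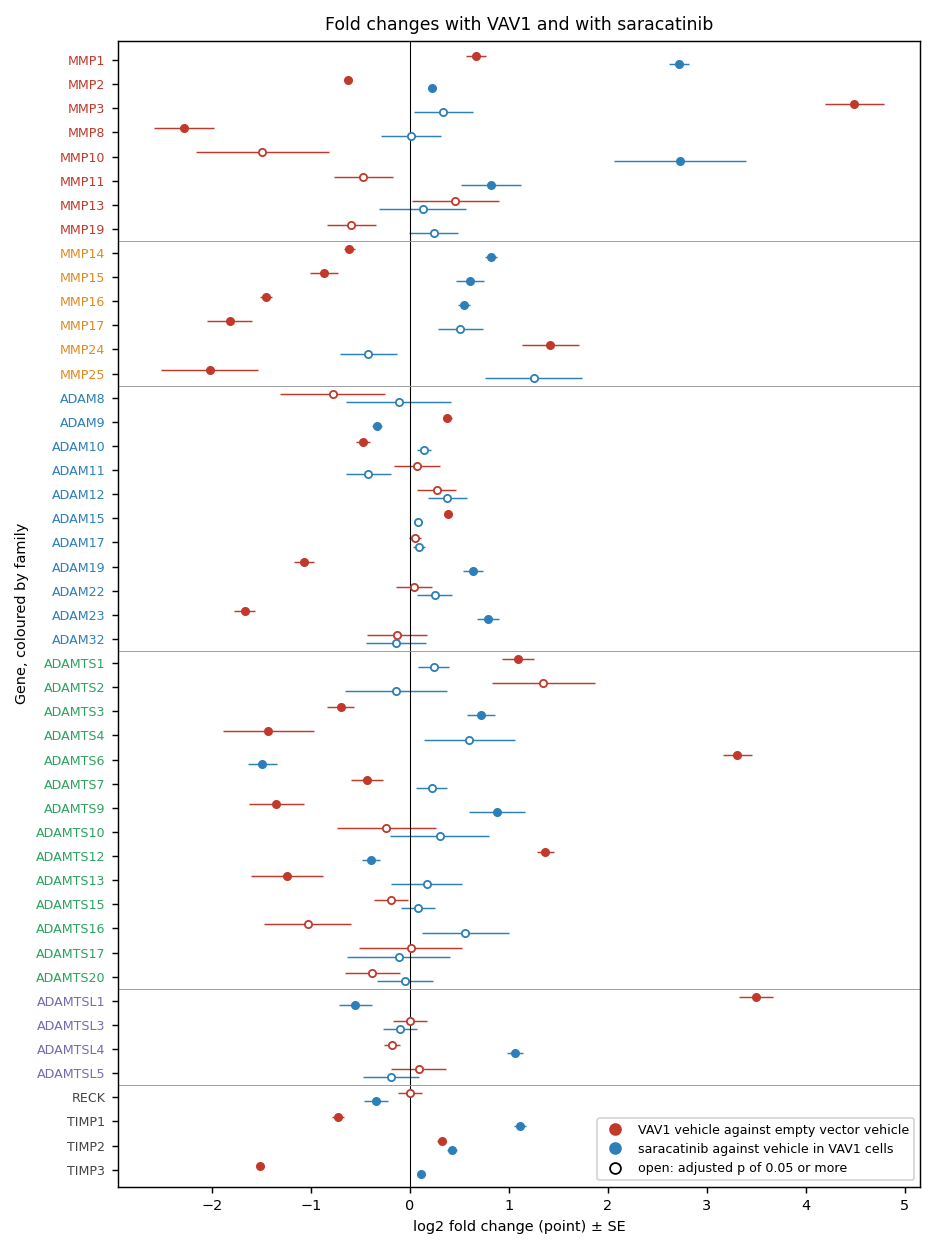
Log2 fold changes (horizontal axis) of the tested genes (rows, with names coloured by family) are shown for VAV1 against empty vector with vehicle (red) and for saracatinib against vehicle in VAV1 cells (blue), with open points where the limma adjusted p was 0.05 or more. Bars are 1 limma SE, pooled over the 9 libraries of the fit and moderated across genes. ADAMTS18 is left out because it is listed at 0 in the controls. MMP1 stands at 0.67 and 2.72, TIMP1 at -0.73 and 1.11, and ADAMTS6 at 3.31 and -1.49.

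The third question concerned RAC1 P29S in untreated cells, an experiment with its own controls. RAC1 P29S cells carried 10.7-fold more MMP3, 4.90-fold more MMP9 and 2.47-fold more MMP2 RNA than empty vector cells, 13.6-fold more ADAMTS6 and 9.69-fold more ADAMTSL1. TIMP1 was 2.81-fold lower. Of the 47 genes listed, 45 were tested (all except MMP10 and MMP11), and 14 rose and 11 fell by limma with Benjamini-Hochberg adjustment, against 15.6% and 15.5% of all 14036 tested genes (31.1% in either direction). The median log2 fold change was 0.03 over the 45 genes and -0.004 over all tested genes. ADAMTS18 again passed the filter with no control library at a normalized count of 10.

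Of 7 secreted MMPs tested, 4 rose and 1 fell, against 15.6% and 15.5% of all tested genes. MMP3 read 3.75, 3.53 and 3.40 in controls and 6.65, 6.69 and 7.61 with RAC1 P29S, a log2 fold change of 3.42 ± 0.29 (limma adjusted p = 1.03e-05) that was 2.40 with a pseudocount of 16. RAC1 P29S library 3 was the highest by almost a log2 unit, and all 3 lay above the controls. The gelatinases rose together. MMP9 went from 4.57, 4.52 and 4.27 to 6.81, 6.63 and 6.81 (2.29 ± 0.20, limma adjusted p = 1.09e-05) and MMP2 from 9.88, 9.77 and 9.63 to 11.00, 11.04 and 11.16 (1.30 ± 0.08, limma adjusted p = 6.38e-07). Both pairs of groups were separated by several times the library spread. MMP9 shares 151 exonic bases with SLC12A5-AS1 on the opposite strand. MMP1 rose from 6.73, 6.59 and 6.72 to 7.47, 7.82 and 7.63 (1.95-fold, limma adjusted p = 0.000433), while MMP8, in the same cluster, fell from 6.99, 7.0 and 7.12 to 5.63, 5.82 and 5.71 (2.49-fold, limma adjusted p = 0.000105).

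Of the 6 membrane-type MMPs, none rose and 3 fell, against 15.6% and 15.5% of all tested genes. MMP15 went from 8.48, 8.38 and 8.29 to 6.49, 6.67 and 6.83, 3.29-fold lower (limma adjusted p = 4.17e-06). MMP17 read 8.69, 8.49 and 8.34 against 6.89, 6.86 and 6.55 (3.34-fold lower, limma adjusted p = 6.5e-06), and MMP16 read 11.23, 11.21 and 11.34 against 10.42, 10.51 and 10.29 (1.80-fold lower, limma adjusted p = 6.16e-06). In these 3 genes no RAC1 P29S library reached a control. MMP14 read 11.38, 11.33 and 11.19 against 11.27, 11.28 and 11.26, overlapping groups with a difference of -0.03 ± 0.06 (log2, limma adjusted p = 0.713).

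The inhibitors again split. TIMP1 fell from 13.26, 13.24 and 13.25 to 11.72, 11.73 and 11.83 (-1.49 ± 0.04, limma adjusted p = 7.01e-09), and TIMP3 from 14.42, 14.42 and 14.40 to 13.54, 13.56 and 13.60 (-0.84 ± 0.03, limma adjusted p = 5.09e-08). TIMP2 rose from 10.55, 10.57 and 10.59 to 11.17, 11.13 and 11.28 (0.63 ± 0.06, limma adjusted p = 1.47e-05). Each shift was many times the spread between libraries. RECK read 6.39, 6.15 and 6.42 against 6.44, 6.71 and 6.58, without overlap, but did not pass the test (0.26 ± 0.16, limma adjusted p = 0.262). TIMP2 shares 101 exonic bases with CEP295NL on the same strand.

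Of 11 ADAMs tested, 1 rose and 3 fell, against 15.6% and 15.5% of all tested genes. ADAM23 went from 9.34, 9.20 and 9.17 to 7.87, 8.12 and 7.51 (2.65-fold lower, limma adjusted p = 3.84e-05), and ADAM10 from 11.00, 11.08 and 11.20 to 10.59, 10.85 and 10.54 (1.35-fold lower, limma adjusted p = 0.00317). ADAM17 read 9.69, 9.82 and 9.76 against 9.82, 9.75 and 9.79, overlapping groups (limma adjusted p = 0.771). ADAM9 rose by 0.27 ± 0.07 (limma adjusted p = 0.0124, and 0.0626 under empirical Bayes without trend and robust estimation). ADAM8, a sheddase best known from leukocytes, fell by 1.31 ± 0.35 (limma adjusted p = 0.0173), but the call ended without control library 2, RAC1 P29S library 1 or RAC1 P29S library 2 (adjusted p up to 0.0711).

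Of the 13 ADAMTS genes tested, 6 rose and 2 fell, and 2 of the 4 ADAMTSL genes rose. Of all tested genes, 15.6% rose and 15.5% fell. ADAMTS6 read 4.22, 5.61 and 4.57 in controls and 8.52, 8.52 and 8.67 with RAC1 P29S (3.77 ± 0.30, limma adjusted p = 1.22e-05, and 3.18 with a pseudocount of 16), and ADAMTSL1 read 4.48, 5.32 and 5.02 against 8.35, 8.25 and 8.04 (3.28 ± 0.22, limma adjusted p = 1.67e-06). In both, the controls scattered more than the RAC1 P29S libraries and remained far below them. ADAMTS18 was listed at 0 in all 3 controls and read 4.98, 5.34 and 5.21 (limma adjusted p = 1.64e-05). ADAMTS12 rose from 7.51, 7.70 and 7.63 to 9.13, 9.0 and 9.16 (2.79-fold, limma adjusted p = 1.54e-06), ADAMTS4 from 4.84, 4.70 and 4.28 to 6.10, 5.77 and 5.54 (2.29-fold, limma adjusted p = 0.00494), and ADAMTSL4 from 5.76, 6.52 and 6.08 to 7.08, 6.85 and 7.31 (1.94-fold, limma adjusted p = 0.00666). ADAMTS1 and ADAMTS7 rose by 0.74 ± 0.15 and 0.64 ± 0.18, and ADAMTS16 and ADAMTS9 fell by 0.75 ± 0.19 and 0.76 ± 0.20 on the log2 scale. ADAMTS7 (limma adjusted p = 0.0225) no longer passed without control library 2 or RAC1 P29S library 2 or with the replicate block (up to 0.0965), and ADAMTS9 (limma adjusted p = 0.0155) without control library 3 or RAC1 P29S library 1 (up to 0.0579).

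The VAV1 and RAC1 P29S comparisons share no libraries. Of the 44 genes tested in both, 9 rose in both (ADAM9, ADAMTS1, ADAMTS6, ADAMTS12, ADAMTS18, ADAMTSL1, MMP1, MMP3 and TIMP2), 20.5% of the 44 against 10.9% of 13810 genes tested in both experiments. Another 9 fell in both (ADAM10, ADAM23, ADAMTS9, MMP8, MMP15, MMP16, MMP17, TIMP1 and TIMP3), 20.5% against 10.2%. Opposite calls were made in 3 genes, MMP2, ADAMTS4 and ADAMTS7, which fell with VAV1 and rose with RAC1 P29S, 6.82% against 0.434% of all genes. No gene rose with VAV1 and fell with RAC1 P29S, against 0.652% of all genes, a share too small for 44 genes to differ from. In neither comparison did 13 pass, 29.5% of the 44 against 46.7% of all genes. Of the opposite calls, that of MMP2 passed under all alternatives run in both comparisons. The VAV1 calls of ADAMTS4 and ADAMTS7 both ended without vehicle control library 2, which leaves 1 opposite call, and both calls of ADAMTS7 are among the fragile ones above. ADAMTS18, among the 9 that rose in both, was tested in each experiment through the libraries where it was high. The RAC1 P29S call of ADAM9 ended under empirical Bayes without trend and robust estimation (limma adjusted p = 0.0626). Among the 9 that fell in both, that of ADAMTS9 ended without untreated control library 3 or RAC1 P29S library 1 (limma adjusted p up to 0.0579).

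The difference between the effects was tested as the VAV1 effect minus the RAC1 P29S effect over all 15 libraries, each effect taken within its own experiment. By limma with Benjamini-Hochberg adjustment, 16 of 44 genes passed, 4 with a higher and 12 with a lower value under VAV1, against 8.14% and 7.7% of 13810 genes (15.8% in either direction). The median difference was -0.29 over the 44 genes and 0.007 over all. MMP2 had the smallest p, with a difference of -1.93 ± 0.08 (log2, limma adjusted p = 2.42e-10) between a fall of 0.62 and a rise of 1.30. ADAMTS4 (-2.63 ± 0.58, limma adjusted p = 0.00542, and -1.93 with a pseudocount of 16) and ADAMTS7 (-1.07 ± 0.23, limma adjusted p = 0.00478) differed in the same way. MMP14, ADAM19 and ADAMTS3 fell with VAV1 while their values with RAC1 P29S were -0.03, 0.03 and 0.03, and these gaps passed the test (-0.58 ± 0.08, -1.10 ± 0.13 and -0.73 ± 0.19, limma adjusted p = 9.47e-05, 2.04e-05 and 0.0167). All 3 TIMPs differed in size but not in direction: TIMP1 fell less with VAV1 (difference 0.76 ± 0.07, limma adjusted p = 2.25e-06), TIMP3 fell more (-0.66 ± 0.04, limma adjusted p = 1.86e-08) and TIMP2 rose less (-0.31 ± 0.07, limma adjusted p = 0.00636). ADAMTS3 no longer passed without vehicle control library 3 (adjusted p = 0.0504).

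For MMP3, ADAMTS6, ADAMTSL1, ADAMTS12 and MMP1, which rose in both comparisons, no difference between the effects was called. The estimates were 1.06 ± 0.44 for MMP3 (limma adjusted p = 0.119), -0.46 ± 0.35 for ADAMTS6 (limma adjusted p = 0.42), 0.22 ± 0.28 for ADAMTSL1 (limma adjusted p = 0.653), -0.11 ± 0.13 for ADAMTS12 (limma adjusted p = 0.625) and -0.29 ± 0.16 for MMP1 (limma adjusted p = 0.228), on the log2 scale. These errors leave room for differences in either direction for most of them. That of MMP3 passed without vehicle control library 1 or RAC1 P29S library 3 (adjusted p as low as 0.0366), and that of ADAMTS6 without untreated control library 2 (adjusted p 0.0161). ADAM10, ADAM17 and RECK did not pass either (limma adjusted p = 0.856, 0.892 and 0.377).

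**Figure D4:**
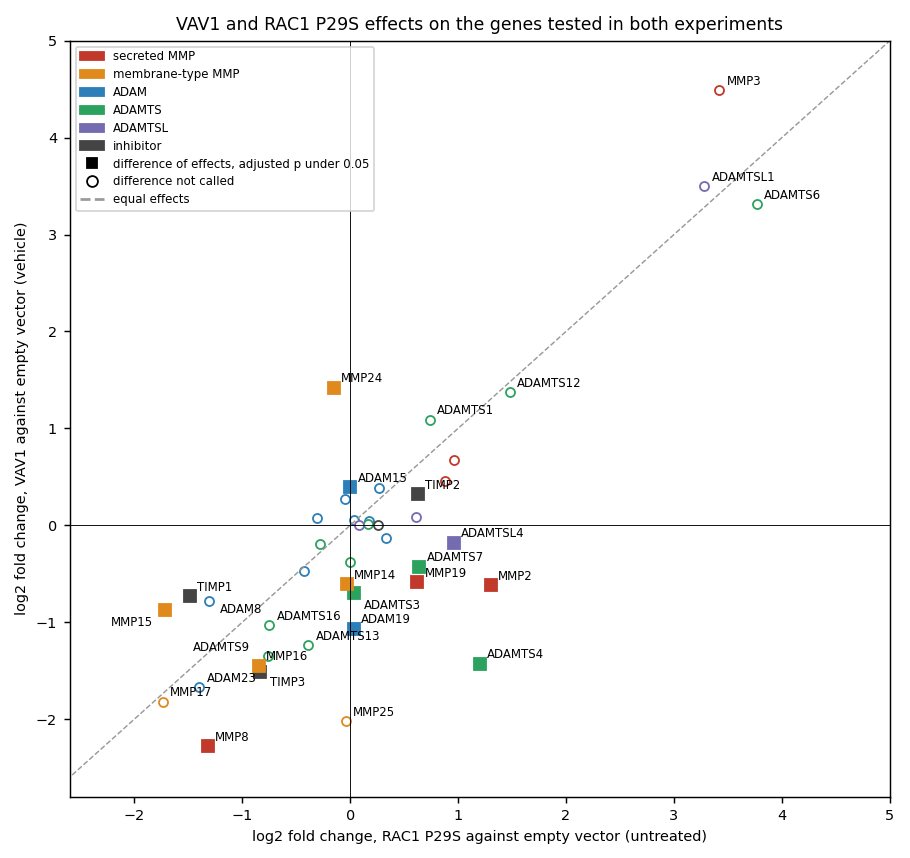
Each point is 1 of the genes tested in both experiments, at its log2 fold change with RAC1 P29S (horizontal axis) and with VAV1 (vertical axis), coloured by family, with filled squares where the difference of the effects had a limma adjusted p under 0.05 and a dashed line of equal effects. ADAMTS18 is left out because its controls are listed at 0. MMP2 and ADAMTS4 lie to the lower right, at 1.30 and 1.20 across and -0.62 and -1.43 up, whereas MMP3, ADAMTS6 and ADAMTSL1 lie at the upper right.

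The control levels themselves were not alike in the 2 experiments. MMP2 read 11.95 to 12.06 in vehicle-treated and 9.63 to 9.88 in untreated empty vector cells, ADAMTS12 9.23 to 9.56 and 7.51 to 7.70, and ADAMTSL4 8.25 to 8.34 and 5.76 to 6.52. TIMP1 was lower in the former, 11.56 to 11.77 against 13.24 to 13.26. The tables were normalized separately and the experiments differ in vehicle treatment, so these gaps were not tested and normalization, vehicle and experiment cannot be told apart. MMP2 stood at 11.00 to 11.16 after its rise with RAC1 P29S and at 11.36 to 11.40 after its fall with VAV1. For the same reason these levels are not compared with each other.

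Genes that work with these enzymes were followed in 5 lists of partners. From each list, genes were picked for the smallest adjusted p in a comparison, PLAU apart, so those named are extremes of their list. Values are not given for every gene in every comparison. Of 21 tested genes for activation and trafficking, 5 rose and 12 fell with VAV1, 7 rose and 3 fell with saracatinib, and 5 rose and 12 fell with RAC1 P29S. The shares of all tested genes higher and lower, for these lists too, were 23.6% and 20.1% with VAV1, 18.3% and 19.1% with saracatinib and 15.6% and 15.5% with RAC1 P29S. The medians of this list were -0.22, 0.17 and -0.32 on the log2 scale in that order, against 0.02, -0.01 and -0.004 over all tested genes. PLAT, the tissue plasminogen activator, fell by 0.99 ± 0.06 with VAV1 and by 1.03 ± 0.07 with RAC1 P29S and rose by 0.41 ± 0.06 with saracatinib (log2, limma adjusted p = 1.37e-08, 1.79e-06 and 9.66e-05). PLAU, the urokinase-type activator, added after its values were seen, rose by 3.06 ± 0.33 with VAV1 and 3.42 ± 0.66 with RAC1 P29S (limma adjusted p = 6.78e-06 and 0.00292). FURIN, the convertase that removes prodomains of membrane-type MMPs and ADAMs, fell by 0.73 ± 0.06 and 0.46 ± 0.05 with VAV1 and RAC1 P29S (limma adjusted p = 3.4e-07 and 9.7e-05). RHBDF1, which carries ADAM17 to the surface, fell by 1.48 ± 0.10 with VAV1 (limma adjusted p = 6.88e-08) and rose by 0.64 ± 0.10 with saracatinib (limma adjusted p = 0.000266). CD63, a tetraspanin that binds TIMP1, fell by 0.56 ± 0.05 with VAV1 and by 0.48 ± 0.04 with RAC1 P29S, and rose by 1.16 ± 0.05 with saracatinib (limma adjusted p = 4.3e-07, 1.77e-05 and 6.66e-10).

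Among other inhibitors and clearance factors, 3 of 13 tested rose and 7 fell with VAV1, 7 rose and 2 fell with saracatinib, and 4 of 12 rose and 6 fell with RAC1 P29S, beside all-gene shares of 23.6% and 20.1%, 18.3% and 19.1%, and 15.6% and 15.5%. The list's medians were -0.76, 0.73 and -0.17 (log2). SERPINE2, a serine protease inhibitor, fell by 1.68 ± 0.03 and 1.24 ± 0.04 (log2, limma adjusted p = 1.56e-13 and 6.16e-09) with VAV1 and RAC1 P29S. A2M, a broad protease trap, rose by 4.04 ± 0.24 with saracatinib (limma adjusted p = 3.57e-08). THBS1, a thrombospondin that binds MMPs, rose by 1.26 ± 0.07 with VAV1 and 0.88 ± 0.04 with RAC1 P29S and fell by 1.90 ± 0.07 with saracatinib (limma adjusted p = 4.35e-08, 2.11e-07 and 2.34e-09).

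Of 30 tested matrix substrates, 5 rose and 17 fell with VAV1, and 9 rose and 6 fell with saracatinib, and of 28 tested in the other experiment 8 rose and 13 fell with RAC1 P29S, against 43.7%, 37.3% and 31.1% of all tested genes called in either direction. The list's medians were -0.56, 0.11 and -0.09 (log2). TNC, or tenascin C, fell by 2.72 ± 0.06 and 1.44 ± 0.06 with VAV1 and RAC1 P29S (log2, limma adjusted p = 1.31e-12 and 4.94e-08), and SPARC, a collagen-binding glycoprotein, by 1.11 ± 0.03 and 0.81 ± 0.04 (limma adjusted p = 1.9e-11 and 2.94e-07). The 30 shed membrane substrates moved both ways: 14 rose and 11 fell with VAV1, 12 rose and 12 fell with saracatinib, and 13 rose and 10 fell with RAC1 P29S, against the same all-gene shares, with medians of 0.09, 0.10 and -0.10 (log2). TGFA, a growth factor released by ADAM17, fell by 2.20 ± 0.05 with VAV1 and 1.38 ± 0.04 with RAC1 P29S and rose by 1.24 ± 0.05 with saracatinib (limma adjusted p = 5.86e-13, 5.52e-09 and 4.4e-10). HBEGF, another such ligand, rose by 2.88 ± 0.11 with VAV1 (limma adjusted p = 1.95e-10).

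Of 22 transcription factors known to act at metalloproteinase promoters, 9 rose and 9 fell with VAV1, 4 rose and 7 fell with saracatinib, and 6 rose and 8 fell with RAC1 P29S. The share called was 81.8%, 50% and 63.6%, against 43.7%, 37.3% and 31.1% of all tested genes, while the share higher with saracatinib, 4 of 22, was near the 18.3% of all genes. JUN, an AP-1 subunit, rose by 1.93 ± 0.09 with VAV1 and 1.74 ± 0.11 with RAC1 P29S (log2, limma adjusted p = 8.63e-10 and 1.14e-06). ETS1 rose by 1.26 ± 0.06 and 1.21 ± 0.06 and fell by 0.93 ± 0.06 with saracatinib (limma adjusted p = 1.59e-09, 1.72e-07 and 6.39e-08). FOS, the other classical AP-1 subunit, fell by 1.75 ± 0.09 with VAV1 and rose by 2.14 ± 0.09 with saracatinib (limma adjusted p = 6.12e-09 and 1.8e-09).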

How the data were processed

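The authors deposited a table for each library that pairs symbols with log2 values, read here as log2 of a normalized count plus 1. Per the submitters' processing notes, kallisto, DESeq2 and GRCh38 were used; versions and annotation are not given in the sources used here. Whole reads could not be recovered, since only 47.1% to 53.6% of low values lay within 0.1 of a whole multiple of the best step, so no count test was run. The median share over all steps tried was 16.9% to 18.5%, depending on the library. Genes reaching a normalized count of 10 in 3 or more libraries of an experiment were fitted with limma 3.58.1 (R 4.3.3; 1 mean per group, trended and robust empirical Bayes, two-sided), and p-values were adjusted by Benjamini-Hochberg over all tested genes. The 9, 6 and 15 libraries were fitted together for the inhibitor experiment, the untreated experiment and the difference of effects. The scripts were tested on simulated data. Coordinates are those of GENCODE 29.

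The genes, lists and tests were chosen with earlier results of these data known. Genes given with values were those always followed (MMP1, MMP2, MMP9, MMP14, ADAM10, ADAM17, the TIMPs and RECK) and, per comparison and direction, up to 8 called genes without overlap between groups with the largest fold change (up to 6 in the difference); others were added after their values were seen. Same-numbered libraries did not deviate together (correlations -0.0547 to 0.0125), so the main fit has no block. Alternatives were the scaling, the filter, the pseudocount, the empirical Bayes settings, the replicate block, fits of 2 groups and the omission of each library. Symbols are taken as deposited.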

Additional observations from a re-analysis of the deposited data

Results flagged for a closer look

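In 16 genes the VAV1 effect and the RAC1 P29S effect differed by the test of the difference itself (limma over 15 libraries, Benjamini-Hochberg adjusted p under 0.05). The values are the VAV1 log2 fold change minus the RAC1 P29S log2 fold change, and each effect had 3 libraries against 3. The difference was positive for MMP24 (1.57), MMP15 (0.85), TIMP1 (0.76) and ADAM15 (0.39). With a pseudocount of 16 in place of 1, the difference of MMP24 was 0.88. The difference was negative for ADAMTS4 (-2.63), MMP2 (-1.93), MMP19 (-1.22), ADAMTSL4 (-1.13), ADAM19 (-1.10), ADAMTS7 (-1.07), MMP8 (-0.96), ADAMTS3 (-0.73), TIMP3 (-0.66), MMP16 (-0.60), MMP14 (-0.58) and TIMP2 (-0.31). The difference of MMP19 (limma adjusted p = 0.0364) was lost in 9 of 23 alternatives, with adjusted p up to 0.0953. That of MMP8 (limma adjusted p = 0.0437) was lost in 15 of 23, with adjusted p up to 0.389, among them the omission of any 1 library of the 4 groups the difference is taken from other than VAV1 library 3, while the omission of a saracatinib library did not end it.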

How the results depend on the processing

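Over the tested genes of the families studied, in all comparisons, 113 of 233 values were called. The shares of all tested genes called were 43.7% with VAV1, 37.3% with saracatinib and 43.4% for saracatinib-treated VAV1 cells against empty vector. They were 31.1% with RAC1 P29S and 15.8% in the difference. None of the 113 changed sign under any alternative run, and 105 of their 2109 alternative values no longer passed. Values not called passed in 29 of theirs and changed sign in 105, and ADAMTS17 with VAV1, named after its values were seen, ranged from -0.42 to 0.61. Of 1920 alternative values of the genes named by the rule, 1848 kept their direction and their side of the threshold, 57 no longer passed and 15 turned direction, all of them log2 values near 0. RECK with VAV1 went from 0.00 to -0.01 with recomputed median-of-ratios scaling and -0.03 with total-count scaling, and to between -0.04 and 0.07 without single libraries. ADAM17 went to -0.01 in the difference of effects under quantile normalization, and to the same value without vehicle control library 2, VAV1 library 1 or untreated control library 2. Without untreated control library 1, ADAM17 and MMP14 with RAC1 P29S were -0.002 and 0.01, within ranges of -0.002 to 0.06 and -0.09 to 0.01 over the omissions of single libraries, and ADAM10 in the difference of effects ranged from -0.10 to 0.05. Leaving out 1 library at a time gave 11 to 12 genes higher and 15 to 17 lower with VAV1, 12 to 15 and 3 to 6 with saracatinib, 12 to 15 and 8 to 10 for saracatinib-treated VAV1 cells against empty vector, 13 to 15 and 9 to 11 with RAC1 P29S, and 4 to 5 and 10 to 12 in the difference. The count of genes lower with saracatinib was 3 instead of 5 without VAV1 library 1, VAV1 library 3, saracatinib library 2 or saracatinib library 3. With the replicate number as a block, the counts higher and lower were 11 and 17, 13 and 4, 14 and 9, 13 and 11, and 4 and 11 in the same order. Fits of 2 groups alone were run for the inhibitor experiment. Recomputed scalings moved the median of all genes to between -0.03 and 0.02. Read depth was not recovered, so counting error of low genes such as MMP10 and MMP25 could not be given.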
